A study of Mus musculus with 20 samples.

Results

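H3K27me3, the trimethylation of lysine 27 on histone H3, was compared between knockout and wild type TL1 mouse embryonic stem (ES) cells. In the knockout cells CRISPR/Cas9 had been used to deplete p150, which Chaf1a encodes and which is the largest part of CAF-1, a chaperone for histones. The comparison rests on 1 ChIP-seq library in knockout ES and 1 in wild type ES, 2 of the 20 samples of the series, and takes in all 20462 genes of the deposited H3K27me3 table. With 1 library a side there is no replicate spread for the mark, so its differences are described by size and by counting error and carry no test. Both ES groups were grown with serum and LIF, and the embryoid bodies (EB) used beside them, also knockout and wild type, were grown without LIF. H3K4me3 had 1 library in each of the same groups, and RNA-seq had 2 libraries in knockout ES and 2 in wild type ES. The labels say neither whether the knockout cells are 1 clone nor whether the RNA replicates were separate cultures, so the RNA p-values reflect only how far these libraries differ among themselves, possibly for technical reasons.

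H3K27me3 is written by the Polycomb complex PRC2 and read by PRC1, and both complexes keep developmental genes silent. In ES cells the mark covers the CpG-rich starts of genes for transcription factors of the body plan, such as the Hox clusters, and many of these starts also carry H3K4me3, the mark of active or poised promoters. CAF-1 brings newly made H3 and H4 to DNA behind the replication fork, where the marks of the parental histones are then copied.

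The starts of 4 genes described below are printed as examples of sequence. Each run is the RefSeq window from 250 bases before to 50 bases after the annotated gene start on GRCm38.p6 (mm10), 5′ to 3′ on the plus strand, with every CpG in capitals. Nes, at chr3:87970843-87971142, and Hoxb4, at chr11:96318017-96318316, had less signal in knockout ES and lie in the decile of genes with the densest mark. Cdkn1a, at chr17:29090729-29091028, had less signal from a sparser mark, and Sfxn1, at chr13:54071595-54071894, had more.
Nes: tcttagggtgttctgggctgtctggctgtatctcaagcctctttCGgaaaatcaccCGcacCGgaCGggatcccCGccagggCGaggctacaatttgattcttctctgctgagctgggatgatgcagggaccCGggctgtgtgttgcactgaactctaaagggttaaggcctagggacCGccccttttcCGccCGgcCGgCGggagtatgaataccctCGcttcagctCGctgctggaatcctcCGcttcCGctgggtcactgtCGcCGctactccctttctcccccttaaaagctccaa
Cdkn1a: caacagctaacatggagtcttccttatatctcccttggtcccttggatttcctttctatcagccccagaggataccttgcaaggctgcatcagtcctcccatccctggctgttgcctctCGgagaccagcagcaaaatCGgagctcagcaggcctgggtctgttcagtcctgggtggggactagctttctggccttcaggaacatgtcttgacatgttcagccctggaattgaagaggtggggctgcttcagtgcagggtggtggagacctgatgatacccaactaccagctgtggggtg
Hoxb4: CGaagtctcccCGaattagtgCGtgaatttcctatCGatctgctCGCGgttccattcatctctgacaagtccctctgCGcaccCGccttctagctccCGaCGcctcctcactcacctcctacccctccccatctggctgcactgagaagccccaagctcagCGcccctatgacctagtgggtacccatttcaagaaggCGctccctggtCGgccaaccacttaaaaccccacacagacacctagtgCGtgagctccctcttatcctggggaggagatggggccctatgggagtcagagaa
Sfxn1: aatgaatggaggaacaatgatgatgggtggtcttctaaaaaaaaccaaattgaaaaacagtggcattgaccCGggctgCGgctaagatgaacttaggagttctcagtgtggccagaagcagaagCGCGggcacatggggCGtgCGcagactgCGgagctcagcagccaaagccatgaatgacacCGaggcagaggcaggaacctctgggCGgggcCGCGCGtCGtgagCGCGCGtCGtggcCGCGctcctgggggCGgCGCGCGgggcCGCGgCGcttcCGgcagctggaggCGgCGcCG
The Nes window holds 18 CpG, the Cdkn1a window 2, the Hoxb4 window 14 and the Sfxn1 window 30, and the median over all 23727 RefSeq windows is 7. A window describes the sequence at 1 annotated start only, and the region over which the mark was summed is uncertain.

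The deposited H3K27me3 values are described by the deposit as RPKM on promoters, but they behave as a signal summed per gene that grows with locus length, so each gene was compared with itself between libraries. Almost every value was a whole number of steps of equal size (99.99% in knockout ES and 99.995% in wild type ES, to within 0.02 of a step), and the total over all genes was 5653223 steps in knockout ES and 5372693 steps in wild type ES. Counting intervals below take a step as 1 read and cover counting error only. Differences are given as log2 of the ratio of knockout over wild type after adding 0.1 to both values, and folds are the plain ratio of both values. Less or more of the mark below means less or more of this signal. How efficiently each library pulled down the mark is unknown here, and the part of pull-down in the differences was not tested. Genes with a mean of at least 1 over both ES libraries were kept, 12305 in all (60.1%). The core pluripotency factors stood below this minimum: Pou5f1 had an H3K27me3 value of 0.133 in knockout ES and 0.133 in wild type ES, Nanog had 0.400 in knockout ES and 0.374 in wild type ES, and Sox2 had 0.0267 in knockout ES and 0.0534 in wild type ES. None of the 79 ribosomal protein genes was kept, and the housekeeping gene Gapdh stood at 0.213 in knockout ES and 0.107 in wild type ES.

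The RNA libraries carried the ES markers at high levels. Pou5f1 was at 1074 and 946 FPKM in knockout ES and 1298 and 1233 FPKM in wild type ES. Chaf1a was at 48.1 and 38.0 FPKM in knockout ES and 49.5 and 43.0 FPKM in wild type ES (log2 difference -0.11 ± 0.14, SE, limma, adjusted p = 0.829), and a gene-level value cannot see a small CRISPR lesion. The 6 fibroblast and feeder markers summed to 50.0 and 43.3 FPKM in knockout ES, against 5.42 and 8.63 FPKM in wild type ES, nearly all of it Thy1, while Col1a1, Col1a2, Col3a1, Postn and Lum stayed under 1 FPKM in every library and Lum was at 0 in 1 wild type library. Zscan4c and Zscan4d, markers of 2-cell-like cells, summed to 11.5 and 3.29 FPKM in knockout ES, against 1.62 and 0.453 FPKM in wild type ES. In bulk samples more cells of a type and more RNA per cell cannot be told apart, and the part of such cells in the differences below was not tested.

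Across the kept genes H3K27me3 was about as often higher as lower in knockout ES, and most genes differed little. The median log2 ratio was 0.0037, with an SD over genes of 0.43, and 48.9% of genes were below 0. The value was at least 1.5-fold higher in knockout ES for 875 genes (7.11%) and at least 1.5-fold lower for 1154 genes (9.38%). At 2-fold the counts were 104 higher (0.845%) and 178 lower (1.45%). The spread was wider than counting alone gives. Among the genes with the lowest values the SD of the log2 ratio was 0.46, where counting would give 0.31, and among those with the highest values it was 0.35, where counting would give 0.053.

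**Figure D1:**
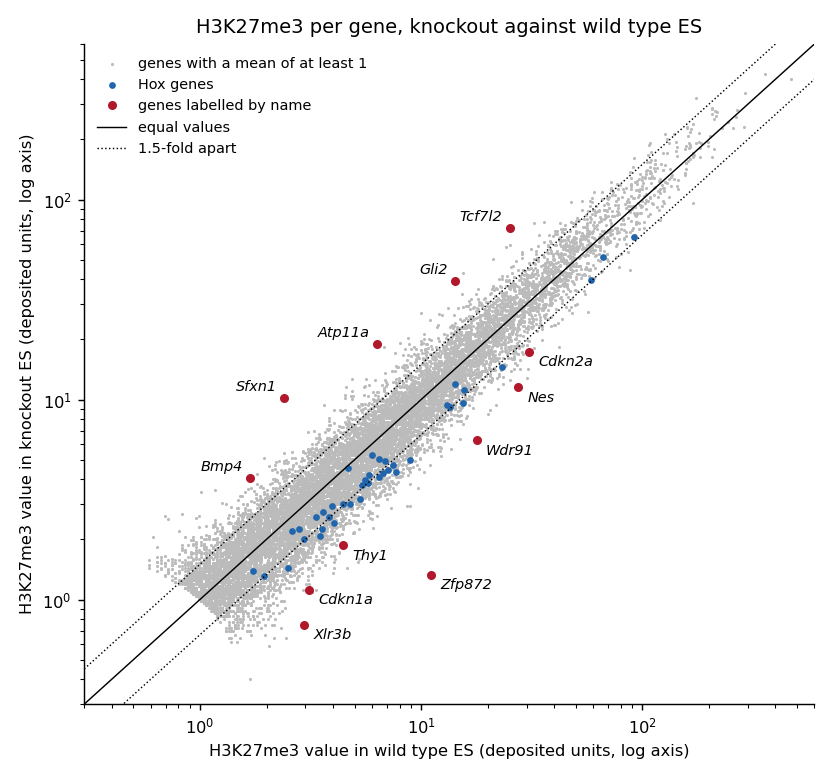
H3K27me3 value per gene in knockout ES (vertical, log axis, deposited units) against wild type ES (horizontal, log axis), 1 library each, for the 12305 genes with a mean of at least 1 (grey), with the 39 Hox genes in blue and 12 genes named in red. Most genes lie between the dotted lines at 1.5-fold, all Hox genes lie below the line of equal values, and Zfp872 and Sfxn1 stand farthest from it among the genes named.

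Where the ES mean was 4 or more, the lowest ratios were at genes of mixed function. Zfp872, a zinc finger gene, had an H3K27me3 value of 1.33 in knockout ES and 11.1 in wild type ES, a fold of 0.120 (95% counting interval 0.0880 to 0.162). Acp5 nearby, which encodes tartrate-resistant acid phosphatase, had 3.60 in knockout ES and 9.68 in wild type ES. They lie close together on chromosome 9, Zfp872 at 22188090 to 22202123 and Acp5 at 22126727 to 22135711 in mm10. Oas1b, of the family of interferon-induced oligoadenylate synthetases, had 2.93 in knockout ES and 8.94 in wild type ES. Wdr91, which acts in endosome maturation, had 6.27 in knockout ES and 17.8 in wild type ES, and Mapk8ip2, a scaffold of JNK signalling, had 2.93 in knockout ES and 8.64 in wild type ES. The log2 ratio was -1.38 at B4galnt1, which makes complex gangliosides, -1.31 at the T cell costimulatory ligand gene Cd80, -1.24 at the amino acid transporter gene Slc43a1 and -1.24 at Fam83h. Nes, the intermediate filament protein of neural progenitors, carried the mark most densely of these 10 genes, with a value of 11.5 in knockout ES and 27.5 in wild type ES over a locus on chromosome 3 from 87971078 to 87980451. Its fold was 0.418 (0.373 to 0.469), and its RNA was at 6.59 and 5.63 FPKM in knockout ES against 1.58 and 1.72 FPKM in wild type ES, groups that do not overlap but whose difference limma did not call (log2 difference 1.42 ± 0.31, SE, limma, adjusted p = 0.112).

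The highest ratios, again where the ES mean was 4 or more, were at longer loci. Sfxn1, a mitochondrial serine transporter, had an H3K27me3 value of 10.2 in knockout ES and 2.40 in wild type ES, a fold of 4.24 (3.37 to 5.40). Tcf7l2, a transcription factor of the WNT pathway, had 71.8 in knockout ES and 25.1 in wild type ES, and Gli2, a transcription factor of the Hedgehog pathway, had 39.1 in knockout ES and 14.3 in wild type ES. Pcsk6, a proprotein convertase, had 43.1 in knockout ES and 15.4 in wild type ES. Atp11a, a phospholipid flippase, had 18.9 in knockout ES and 6.32 in wild type ES, and the laminin chain gene Lama1 had 18.3 in knockout ES and 6.80 in wild type ES. The log2 ratio was 1.42 at the translation factor gene Eif4g3, 1.36 at the endocytic receptor gene Ly75 and 1.33 at the kinesin gene Kifc3. RNA was lower in both knockout ES libraries than in both wild type ES libraries for every one of these 9 genes except Tcf7l2 and Eif4g3, whose groups overlap. The same was seen in 14.9% of all 5495 kept genes that averaged 1 FPKM or more in ES. Of the 9, limma called Ly75 alone, at 5.22 and 7.21 FPKM in knockout ES against 16.1 and 19.8 FPKM in wild type ES (log2 difference -1.40 ± 0.20, SE, limma, adjusted p = 0.0477), and that call was lost under all 8 alternatives run (adjusted p from 0.0572 to 0.282, limma). Lama1 RNA was at 9.17 and 7.82 FPKM in knockout ES against 18.2 and 18.3 FPKM in wild type ES (adjusted p = 0.0697, limma), and Sfxn1 RNA was at 21.7 and 20.8 FPKM in knockout ES against 29.9 and 35.3 FPKM in wild type ES (log2 difference -0.59 ± 0.12, SE, limma, adjusted p = 0.0941).

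Genes that carry the mark most densely had less H3K27me3 signal in the knockout ES library. The RNA table gives a locus for 10828 of the kept genes (88%), and these were ordered by the mean H3K27me3 value of both ES libraries per kilobase of locus. In the densest decile, 1083 genes above 0.658 per kilobase, the median density was 0.856 per kilobase in knockout ES and 1.06 in wild type ES. Their median log2 ratio was -0.32, and 81.0% of them were below 0. At least 1.5-fold lower were 234 (21.6%, beside 9.38% of all kept genes), and 19 (1.75%, beside 7.11%) were at least 1.5-fold higher. In the other 9 deciles together, 9745 genes, the median was 0.044 and 45.2% were below 0. The sum of values over the densest decile gave a ratio of 0.858 of knockout over wild type, while the sums over the sixth, the seventh and the eighth gave 1.13, 1.17 and 1.15.

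Beside Nes and Acp5, the lowest ratios within the densest decile were at Ankrd34a (1.12 in knockout ES and 3.34 in wild type ES), the orphan receptor gene Gpr3 (1.09 in knockout ES and 3.20 in wild type ES) and Camk2n2, an inhibitor of CaM kinase II (0.987 in knockout ES and 2.35 in wild type ES). The highest ratios there were at Cyp8b1, a sterol hydroxylase of bile acid synthesis (3.01 in knockout ES and 1.31 in wild type ES), Hhatl (14.6 in knockout ES and 7.68 in wild type ES), the complement gene C1qc (4.03 in knockout ES and 2.13 in wild type ES), Lyzl4 (56.5 in knockout ES and 31.3 in wild type ES) and Actrt2 (2.00 in knockout ES and 1.07 in wild type ES).

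Locus length moved with the ratio. The shortest decile of loci, with a median of 4.25 kb, had a median log2 ratio of -0.28, and the longest decile, with a median of 282 kb, had 0.091. With genes in 3 equal classes of density and 3 of length, the median in the densest class was -0.21 for short loci (2255 genes), 0.073 for middle ones (863 genes) and 0.23 for long ones (492 genes), while in the sparsest class it was -0.053 for short and 0.037 for long loci. Within the densest decile, 712 loci under 10 kb had a median of -0.39 and 371 longer loci had -0.17. Density is a value over length, so the 2 cannot be told apart fully here. Also within the densest decile, the median was -0.36 in the 543 genes with more H3K4me3 and -0.28 in the 540 with less, and -0.41 in 233 genes expressed at 1 FPKM or more on average in ES and -0.30 in 850 genes below it.

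**Figure D2:**
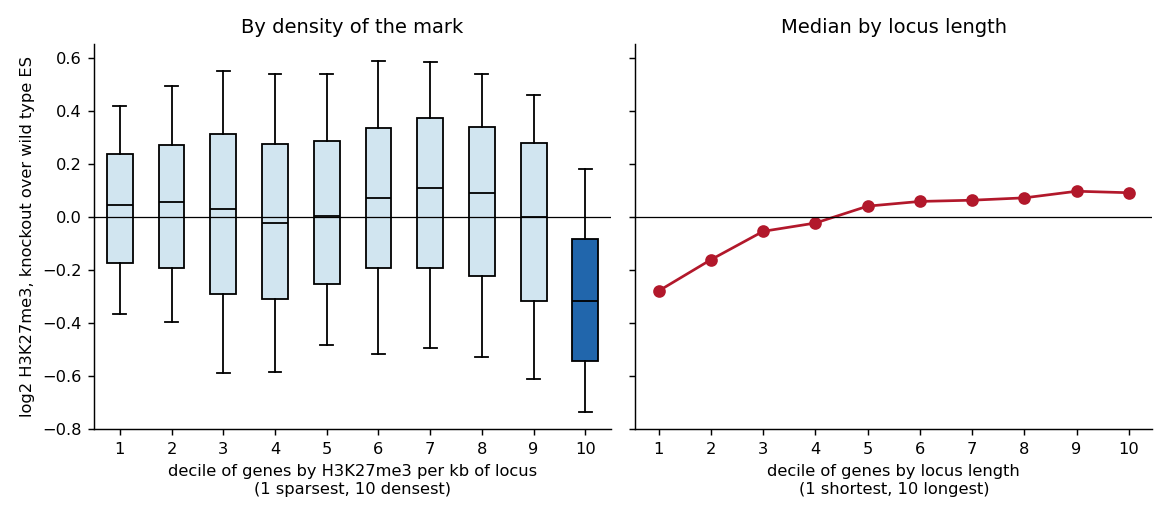
Log2 ratio of H3K27me3 in knockout over wild type ES by decile of genes. Left, for deciles by H3K27me3 per kilobase, boxes show the middle 50% with the median and whiskers run to the 10th and 90th percentiles, and right, points are medians of deciles by locus length. The densest decile (dark) is centred on -0.32, and the medians run from -0.28 in the shortest loci to 0.091 in the longest.

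The Hox genes, which pattern the body axis, were all below 0. Of the 39 Hox genes, every one of them kept, 14 (35.9%, beside 9.38% of all kept genes) were at least 1.5-fold lower in knockout ES and 0 (beside 7.11%) were at least 1.5-fold higher, with a median log2 ratio of -0.54 and a range from -0.82 at Hoxb7 to -0.041 at Hoxd13. Hoxb7 had an H3K27me3 value of 4.99 in knockout ES and 8.88 in wild type ES (fold 0.562, 0.467 to 0.674), and Hoxd13 had 4.54 in knockout ES and 4.67 in wild type ES. The median was -0.66 over 10 Hoxb genes, -0.49 over 11 Hoxa genes, -0.49 over 9 Hoxc genes and -0.36 over 9 Hoxd genes. Summed over a cluster, Hoxb came to 76.9 in knockout ES and 119 in wild type ES, and Hoxd to 85.5 in knockout ES and 111 in wild type ES. Neighbouring Hox loci overlap and may share reads, so the members of a cluster are not separate measurements. Hoxa9 had 4.19 in knockout ES and 5.84 in wild type ES, Hoxb4, whose start is printed above, had 3.95 in knockout ES and 5.55 in wild type ES, Hoxc8 had 4.72 in knockout ES and 7.50 in wild type ES, and Hoxd11 had 1.39 in knockout ES and 1.73 in wild type ES. H3K4me3 at Hox genes had a median log2 ratio of -0.12, and no Hox gene reached a mean of 1 FPKM in ES.

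Several other families of homeobox factors had a median below 0. All 6 Dlx genes, factors of forebrain and limb, were below 0 with a median of -0.65, from Dlx5 at 2.99 in knockout ES and 5.23 in wild type ES to Dlx3 at 6.54 in knockout ES and 9.04 in wild type ES. The 6 Irx genes had a median of -0.53, with the neural factor Irx3 at 1.97 in knockout ES and 4.16 in wild type ES. The 8 Lhx genes had a median of -0.40, from Lhx9 at -0.68 to Lhx8 at 0.12, and the 12 kept Nkx genes had -0.29, with Nkx2-2 lowest at 7.26 in knockout ES and 10.5 in wild type ES. Of these 12, 8 were below 0, 0 were at least 1.5-fold lower, and Nkx6-3 was highest at a log2 ratio of 0.38. The 6 kept Pou3 and Pou4 genes, factors of neurons, were all below 0 with a median of -0.43, but 0 of them were at least 1.5-fold lower. Differences between families were not tested. Among other families of developmental factors the median was -0.25 over 15 Sox genes, -0.19 over 12 Tbx genes, -0.16 over 36 Fox genes and -0.093 over 6 Gata genes. Below 0 were 14 of the Sox, 9 of the Tbx, 22 of the Fox and 3 of the Gata genes. The Fox genes went both ways, with 8 (22.2%, beside 9.38% of all kept genes) at least 1.5-fold lower and 5 (13.9%, beside 7.11%) at least 1.5-fold higher. The 9 Pax genes had a median of -0.087, from Pax3 at 53.4 in knockout ES and 80.1 in wild type ES to Pax5 at 129 in knockout ES and 99.6 in wild type ES.

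Neuroectoderm and mesoderm genes were mostly below 0, endoderm genes were split. Of 25 neuroectoderm genes 23 (92%, beside 48.9% of all kept genes) were below 0 and 6 (24%, beside 9.38%) were at least 1.5-fold lower, with a median of -0.42. The forebrain factor Pax6 had 22.9 in knockout ES and 25.2 in wild type ES, the neural factor Sox1 had 3.60 in knockout ES and 4.30 in wild type ES, and Gbx2, a factor of the midbrain-hindbrain border, was the highest of the list at 3.31 in knockout ES and 2.67 in wild type ES. Of 22 kept mesoderm genes 17 (77.3%) were below 0 and 6 (27.3%) were at least 1.5-fold lower, with a median of -0.43. Hand2, a heart and limb factor, was lowest at 2.16 in knockout ES and 4.94 in wild type ES, the primitive streak factor T had 9.71 in knockout ES and 11.8 in wild type ES, and Meox1 was highest at 10.3 in knockout ES and 7.26 in wild type ES. Of 19 endoderm genes 10 (52.6%) were below 0, with a median of -0.096. Sox17 had 5.20 in knockout ES and 8.56 in wild type ES, whereas Gata4 had 25.5 in knockout ES and 23.7 in wild type ES and Gata6 had a log2 ratio of 0.097. The 15 trophoblast genes had a median of -0.093, with Cdx2 at 8.62 in knockout ES and 11.1 in wild type ES and Tead4 highest at 20.1 in knockout ES and 13.4 in wild type ES.

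Genes of signalling ligands had a median somewhat below 0. Of 42 kept FGF, BMP, WNT and Hedgehog ligand genes 9 (21.4%, beside 9.38% of all kept genes) were at least 1.5-fold lower. At least 1.5-fold higher were 3 (7.14%, close to the 7.11% of all), and 25 (59.5%, beside 48.9%) were below 0, with a median of -0.14. Wnt8a was lowest at 6.59 in knockout ES and 12.6 in wild type ES. The 3 higher ones were Bmp4, Fgf1 and Fgf15, of which Fgf1 and Fgf15 were named after their values were seen. Bmp4, whose protein helps to maintain ES cells in serum, had 4.06 in knockout ES and 1.68 in wild type ES, a fold of 2.41 (1.79 to 3.29). RNA of Bmp4 was unequal between the knockout libraries, at 36.1 and 11.0 FPKM in knockout ES and 44.7 and 38.4 FPKM in wild type ES. Fgf1 had 26.6 in knockout ES and 12.4 in wild type ES, and Fgf15, the mouse form of FGF19, had 4.19 in knockout ES and 2.67 in wild type ES.

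The kept genes that hold back the cell cycle all had less of the mark. Of 12 cell cycle inhibitors 7 were kept. All 7 were below 0, 5 of them at least 1.5-fold lower (71.4%, beside 9.38% of all kept genes), with a median of -0.88. Cdkn1a, the p21 inhibitor of cyclin-dependent kinases, had an H3K27me3 value of 1.12 in knockout ES and 3.12 in wild type ES, a fold of 0.359 (0.246 to 0.515). Its RNA rose, with 51.6 and 47.4 FPKM in knockout ES against 22.6 and 18.6 FPKM in wild type ES (log2 difference 1.23 ± 0.16, SE, limma, adjusted p = 0.0351), a call lost under 7 of the 8 alternatives run (adjusted p from 0.0408 to 0.228, limma). Cdkn2a, which encodes p16 and p19Arf, had 17.3 in knockout ES and 30.7 in wild type ES (fold 0.564, 0.511 to 0.621), and its RNA was at 14.4 and 10.8 FPKM in knockout ES and 4.22 and 3.17 FPKM in wild type ES (log2 difference 1.53 ± 0.32, SE, limma, adjusted p = 0.0997). Its neighbour Cdkn2b had 3.31 in knockout ES and 6.16 in wild type ES. The log2 ratios of the stress genes Gadd45g and Gadd45b were -1.14 and -0.94, and the imprinted inhibitor Cdkn1c was highest of the list at 3.23 in knockout ES and 4.32 in wild type ES. The mean RNA difference was above 0 in all 6 of these genes that averaged 1 FPKM or more, beside 62.3% of all 5495 such kept genes. Of the 6, limma called 1, beside 0.421% of all genes tested called higher. H3K4me3 of the list had a median log2 ratio of 0.49.

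Most imprinted genes were below 0. Germline and pluripotency genes lay on both sides of 0, with smaller shares below it and medians nearer to 0. Of the 25 kept imprinted genes 18 (72%, beside 48.9% of all kept genes) were below 0, with a median of -0.29. At least 1.5-fold lower were 4 (16%, beside 9.38%), and 1 (4%, beside 7.11%) was at least 1.5-fold higher. Igf2, a fetal growth factor, had 8.54 in knockout ES and 12.9 in wild type ES, and its RNA rose, with 16.5 and 24.0 FPKM in knockout ES against 2.22 and 3.50 FPKM in wild type ES (log2 difference 2.46 ± 0.27, SE, limma, adjusted p = 0.0237), a call lost under 6 of the 8 alternatives (adjusted p from 0.00923 to 0.113, limma). Plagl1, a zinc finger regulator, was highest with 9.63 in knockout ES and 5.82 in wild type ES. The 21 kept germline genes had a median of -0.11, from the meiotic cohesin subunit gene Stag3 at 1.20 in knockout ES and 2.32 in wild type ES to Tdrd9 at 32.3 in knockout ES and 19.5 in wild type ES. Of these germline genes 13 (61.9%) were below 0, 5 (23.8%) at least 1.5-fold lower and 1 (4.76%) at least 1.5-fold higher. Of the 31 pluripotency genes only 11 were kept, with a median of -0.068. The Nodal antagonist Lefty2 was lowest of the 11 at 1.71 in knockout ES and 3.04 in wild type ES. The DNA demethylation enzyme Tet2 was highest at 3.92 in knockout ES and 2.40 in wild type ES. Below 0 were 7 of the 11 (63.6%), with 3 (27.3%) at least 1.5-fold lower and 1 (9.09%) at least 1.5-fold higher.

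Families of genes for specialised tissues differed among themselves. Of the vomeronasal receptors, which detect pheromones, 100 of 328 genes were kept, and 43 of them (43%, beside 9.38% of all kept genes) were at least 1.5-fold lower and 0 (beside 7.11%) at least 1.5-fold higher, with a median log2 ratio of -0.52. Their median density was 0.0740 per kilobase, beside 1.48 per kilobase for Hox genes. Vmn2r18 was lowest at 0.720 in knockout ES and 2.32 in wild type ES. Of 87 kept cytochrome P450 genes 28 (32.2%) were at least 1.5-fold lower and 4 (4.60%) at least 1.5-fold higher, with a median of -0.43. Keratins, the filament proteins of epithelia, went the other way, with 10 of 50 (20%, beside 7.11%) at least 1.5-fold higher and 0 (beside 9.38%) at least 1.5-fold lower, a median of 0.37, and Krt12 highest at 4.91 in knockout ES and 2.27 in wild type ES. Krt18, a keratin of simple epithelia, had 4.70 in knockout ES and 5.02 in wild type ES, while its RNA rose, with 30.7 and 30.5 FPKM in knockout ES against 6.31 and 4.77 FPKM in wild type ES (log2 difference 2.28 ± 0.17, SE, limma, adjusted p = 0.00573). The clustered protocadherins, adhesion proteins of neurons, had a median of -0.12 over 59 genes with overlapping loci. Members of these families are in part near-identical copies, and how shared reads were assigned is not given in the sources used here.

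The Xlr3, Xlr4 and Xlr5 genes of the X chromosome, best known from lymphocytes and germ cells, had less H3K27me3 together with more H3K4me3 and RNA. All 9 were below 0 in H3K27me3, 8 of them at least 1.5-fold lower (88.9%, beside 9.38% of all kept genes), with a median of -0.91. Xlr3b had 0.747 in knockout ES and 2.96 in wild type ES, and Xlr5a had 1.73 in knockout ES and 3.23 in wild type ES. H3K4me3 of Xlr3b was 3.74 in knockout ES and 0.347 in wild type ES, and the median log2 ratio of H3K4me3 over the 9 genes was 2.67. RNA of Xlr5b was at 15.6 and 13.9 FPKM in knockout ES against 0.284 and 0.222 FPKM in wild type ES (log2 difference 3.65 ± 0.26, SE, limma, adjusted p = 0.00573). Of the 9 genes limma called RNA of 6 higher, beside 0.421% of all genes tested. With no filter on low values Xlr3a, Xlr3b and Xlr3c lost the call (adjusted p from 0.0603 to 0.0951, limma). With ES libraries only, these and Xlr5c lost it (adjusted p from 0.0730 to 0.0792, limma), while Xlr5a and Xlr5b stayed called in both. None of the 6 calls, those of Xlr5a and Xlr5b included, held under every left-out replicate. Their log2 differences in those fits ran from 2.16 to 4.17. The 9 genes are near-identical copies in 1 region, so the split between them is uncertain and they do not count as separate results.

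**Figure D3:**
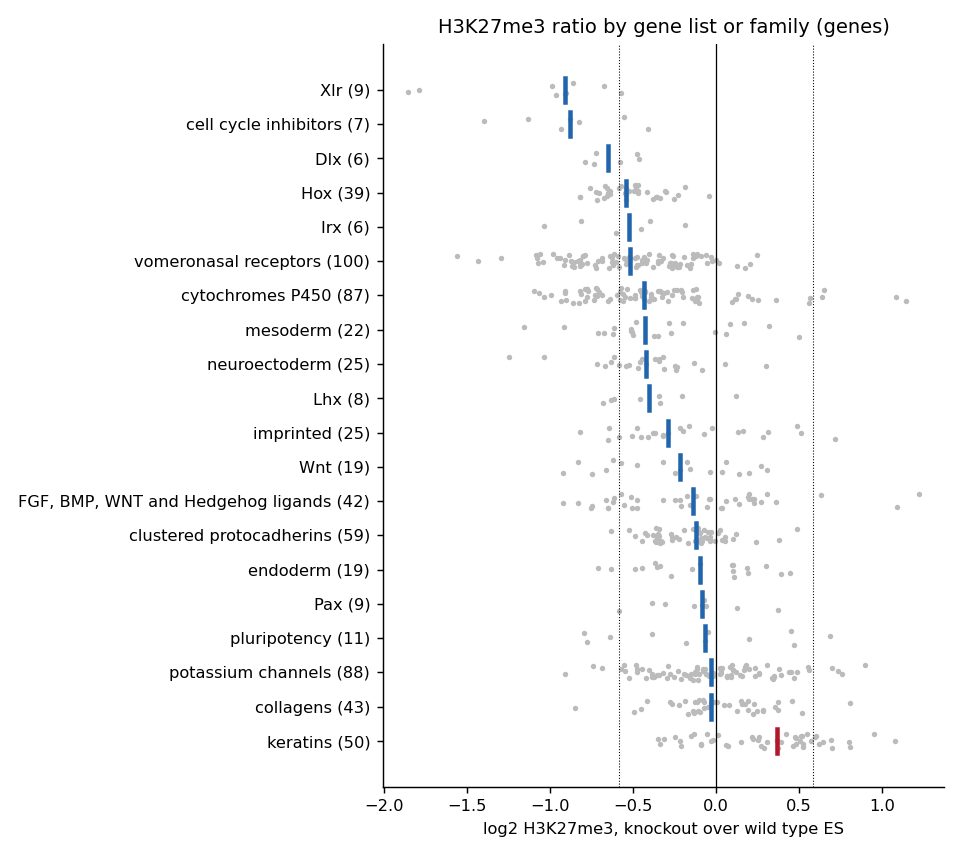
Log2 ratio of H3K27me3 in knockout over wild type ES for each kept gene (points) of 20 lists or families, with the number of genes in brackets and the median as a bar. Dotted lines mark 1.5-fold; medians run from -0.91 for Xlr genes and -0.88 for cell cycle inhibitors to 0.37 for keratins, the family drawn in red.

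RNA of the genes that write and erase the mark did not pass the test in ES. Of 15 PRC2 and H3K27 demethylase genes limma called 0 (2 at an unadjusted p under 0.05), and of 19 PRC1 genes it called 0 (2 at an unadjusted p under 0.05). Over all genes tested limma called 0.421% higher and 0.0778% lower. Ezh2, the methyltransferase, was at 60.3 and 63.2 FPKM in knockout ES and 57.2 and 70.1 FPKM in wild type ES. Eed, the subunit that binds the mark, was at 216 and 210 FPKM in knockout ES and 220 and 196 FPKM in wild type ES, and Suz12 was at 59.4 and 47.7 FPKM in knockout ES and 71.3 and 52.8 FPKM in wild type ES. Jarid2, a subunit that helps PRC2 to find its targets, had both knockout ES libraries above both wild type ES libraries, at 269 and 296 FPKM in knockout ES against 193 and 208 FPKM in wild type ES (log2 difference 0.49 ± 0.11, SE, limma, adjusted p = 0.116). The demethylase gene Kdm6b was at 10.7 and 11.0 FPKM in knockout ES and 15.3 and 11.7 FPKM in wild type ES. Of these 15 genes 7 had a kept H3K27me3 value, with a median log2 ratio of -0.16.

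Genes called higher in RNA mostly had less H3K27me3 in knockout ES. Of 15424 genes tested in ES, 65 (0.421%) passed limma's threshold with more RNA in knockout and 12 (0.0778%) with less. Without knockout replicate 1 it called 0 in either direction (1720 genes at an unadjusted p under 0.05), without knockout replicate 2 it called 13 higher and 6 lower, without wild type replicate 1 it called 13 higher and 4 lower, and without wild type replicate 2 it called 2 higher and 3 lower. Of the 43 called higher that also had a kept H3K27me3 value, 38 (88.4%, beside 48.9% of all kept genes) were below 0 in the mark, with a median log2 ratio of -0.67. Of these 43, 24 (55.8%, beside 9.38%) were at least 1.5-fold lower in the mark and 1, Ermp1, was at least 1.5-fold higher. They include 6 Xlr copies, and without those 19 of 37 (51.4%) were at least 1.5-fold lower and 32 were below 0. The 4 called lower with a kept value, Itga9, Ly75, Inhbb and Nkx6-3, were all above 0, and 2 of them, Itga9 and Ly75, were at least 1.5-fold higher. Itga9, an integrin chain gene named after its values were seen, had H3K27me3 of 57.7 in knockout ES and 24.3 in wild type ES, and its RNA was at 5.38 and 4.29 FPKM in knockout ES against 15.4 and 12.1 FPKM in wild type ES (log2 difference -1.33 ± 0.17, SE, limma, adjusted p = 0.0326). Of the 77 calls, 76 were lost under at least 1 alternative and 17 under every alternative run that could test the gene, Itga9 under 6 of the 8.

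Among the called genes, Thy1, a surface glycoprotein, had H3K27me3 of 1.87 in knockout ES and 4.46 in wild type ES and RNA at 47.7 and 41.3 FPKM in knockout ES against 4.40 and 7.39 FPKM in wild type ES (log2 difference 2.75 ± 0.27, SE, limma, adjusted p = 0.0162). Tmem54 had H3K27me3 of 2.24 in knockout ES and 5.23 in wild type ES, with RNA at 7.37 and 9.10 FPKM in knockout ES against 1.14 and 1.51 FPKM in wild type ES. Tnfrsf8, which encodes the receptor CD30, had 3.92 in knockout ES and 7.02 in wild type ES, with RNA at 7.96 and 6.32 FPKM in knockout ES against 0.838 and 0.598 FPKM in wild type ES. For each of these the mark was lower in knockout. Their RNA groups did not overlap, which follows largely from choosing them by RNA call. Baz1a, a subunit of the ACF chromatin remodeller, had 4.91 in knockout ES and 9.34 in wild type ES, with RNA at 23.2 and 18.3 FPKM in knockout ES against 6.09 and 4.94 FPKM in wild type ES. The tight junction gene Cldn6 had 0.800 in knockout ES and 1.76 in wild type ES, with RNA at 61.2 and 65.6 FPKM in knockout ES against 32.6 and 29.7 FPKM in wild type ES. The germ cell gene Tex101 had 3.90 in knockout ES and 5.26 in wild type ES, with RNA at 4.62 and 5.06 FPKM in knockout ES against 0.227 and 0.360 FPKM in wild type ES. The calls of Thy1 and Cldn6 were lost under all 4 left-out replicates, with no filter on low values and with ES libraries only, Thy1 with adjusted p of up to 0.0827 and Cldn6 of up to 0.264 (limma). The calls of Tmem54 and Tex101 were also lost under all 4 left-out replicates. Those of Baz1a and Krt18 were lost under 2 of the 4, and that of Tnfrsf8 under 1 of the 2 that could test it. With ES libraries only the calls of Tmem54, Tnfrsf8, Baz1a, Tex101 and Krt18 were all lost, with adjusted p between 0.0630 for Krt18 and 0.0971 for Baz1a (limma).

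The same held past the called genes. Over the 5495 kept genes that averaged 1 FPKM or more in ES, the median log2 RNA difference was 0.090, and 62.3% were above 0. Both knockout libraries were above both wild type libraries in 1865 of them (33.9%) and below in 820 (14.9%). Of 99 genes with H3K27me3 lower by 2-fold or more, 93 (93.9%) were above 0 in RNA, with a median of 0.63, and in 72 (72.7%) the knockout libraries were above both wild type ones, beside 33.9% of all. Of 74 genes with H3K27me3 higher by 2-fold or more, 7 (9.46%) were above 0 in RNA, with a median of -0.27, and in 39 (52.7%) the knockout libraries were below both wild type ones, beside 14.9% of all. Genes between 1.5-fold and 2-fold had medians of 0.49 (374 genes, lower mark) and -0.097 (398 genes, higher mark).

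Spearman's rho across the 5495 genes was -0.39 between the H3K27me3 and RNA differences, where genes are not independent replicates and the points share 2 ChIP libraries and 4 RNA libraries. H3K4me3 was set against the same groups. Its log2 ratio was above 0 in 95 of the 99 genes (median 0.35) and in 6 of the 74 genes (median -0.23), beside 54.3% of all 5495, and its rho with H3K27me3 across the 5495 genes was -0.36. Loci of the 99 genes had a median length of 10.8 kb and those of the 74 genes 38.7 kb, and the part of length in the RNA pattern was not tested.

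**Figure D4:**
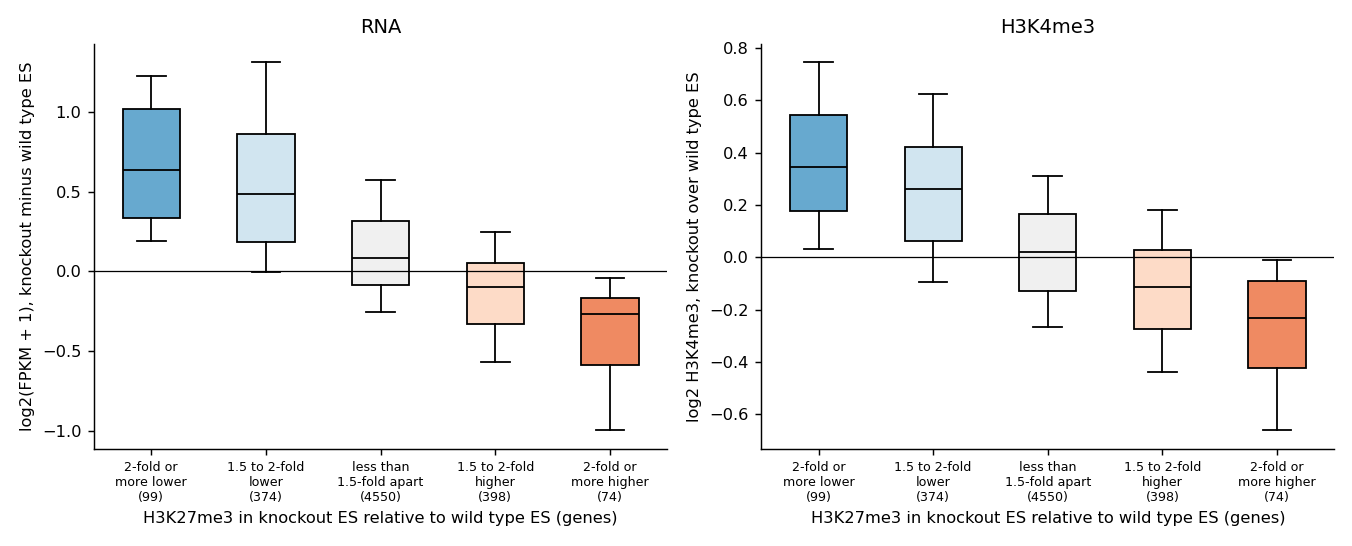
Difference between knockout and wild type ES in RNA (left, log2(FPKM + 1), mean of 2 libraries a side) and in H3K4me3 (right, log2 ratio, 1 library a side) for 5495 genes grouped by the H3K27me3 ratio, with the number of genes in brackets. Boxes show the middle 50% with the median and whiskers run to the 10th and 90th percentiles; RNA medians step down from 0.63 where the mark was lower by 2-fold or more to -0.27 where it was higher by 2-fold or more.

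The EB libraries, none of them used in the ES ratio, gave each gene another ratio. The wild type EB library had a step of 0.04, beside 0.0267 in the other H3K27me3 libraries. It held 4130691 steps in all, against 5959392 in knockout EB, and the part of this in the EB ratios was not tested. Over all 12305 genes the median log2 ratio in EB was 0.16, and 61.7% were above 0. Of these genes, 2615 (21.3%) were at least 1.5-fold higher and 1690 (13.7%) at least 1.5-fold lower in knockout over wild type EB. Of the 178 genes lower by 2-fold or more in ES, 132 were below 0 in EB, with a median of -0.58, and 88 (49.4%) were at least 1.5-fold lower, beside 13.7% of all. Of the 104 genes higher by 2-fold or more in ES, 86 were above 0 in EB, with a median of 0.65, and 59 (56.7%) were at least 1.5-fold higher, beside 21.3% of all. Spearman's rho across the 12305 genes was 0.36, a description over genes that share 4 libraries. In EB the densest decile had a median of -0.59, the Hox genes of -1.50 and neuroectoderm genes of -1.82. Vomeronasal receptors, at -0.52 in ES, were at 0.22 in EB, and clustered protocadherins, at -0.12 in ES, were at 0.82. Among single genes, Nes had 17.9 in knockout EB and 21.1 in wild type EB, Wdr91 had 6.67 in knockout EB and 5.96 in wild type EB, Sfxn1 had 3.95 in knockout EB and 1.60 in wild type EB, and Tcf7l2 had 47.1 in knockout EB and 15.8 in wild type EB. Cdkn1a had 1.15 in knockout EB and 5.60 in wild type EB, a log2 ratio of -2.19. The differences between the ES and EB ratios were not tested.

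The ratio also varied with the CpG content of the gene start. A RefSeq window was found for 6660 kept genes (54.1%), and these were split into 3 equal classes by the observed over expected number of CpG. Over all of them the median log2 ratio was -0.036 in the CpG-poor class, -0.016 in the middle class and 0.058 in the CpG-rich class. Within the densest decile the order was turned round, with medians of -0.20 (191 CpG-poor genes, median of 4 CpG per window), -0.39 (240 genes, median of 16) and -0.40 (159 CpG-rich genes, median of 30). Outside the densest decile they were -0.021, 0.038 and 0.083. Genes with H3K27me3 lower by 2-fold or more had a median of 11 CpG per window, and those higher by 2-fold or more had 16.5, beside 16 in genes less than 1.5-fold apart.

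Among chromosomes with more than 5 kept genes, chromosome 1 and the X chromosome had the lowest medians. Over 737 genes of chromosome 1 the median log2 ratio was -0.18, with 108 genes (14.7%) at least 1.5-fold lower and 14 (1.90%) at least 1.5-fold higher. Over 317 genes of the X chromosome it was -0.22, with 49 (15.5%) lower and 5 (1.58%) higher. Of all kept genes 9.38% were lower and 7.11% higher. Chromosomes 7, 8 and 17 had nearly as large lower shares, at 14.1%, 13.5% and 13.2%, with 4.2%, 6.8% and 9.5% higher. The 5 kept genes of the Y chromosome were all below 0, with a median of -0.59. Medians of the autosomes other than 1 and 8 ran from -0.085 to 0.10. H3K4me3 was lower on chromosome 1 as well, with a median of -0.14 beside 0.036 to 0.077 on those 17 autosomes, and on chromosome 8 it was at -0.047, where H3K27me3 was at -0.045. The X chromosome had a median H3K4me3 log2 ratio of 0.035. RNA medians were -0.019 on chromosome 1, -0.012 on the X chromosome and between -0.037 and 0.030 on those 17 autosomes. Gli2, Pax3, Sox17, Lhx9, Lefty2 and Gbx2, described above, lie on chromosome 1.

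**Figure D5:**
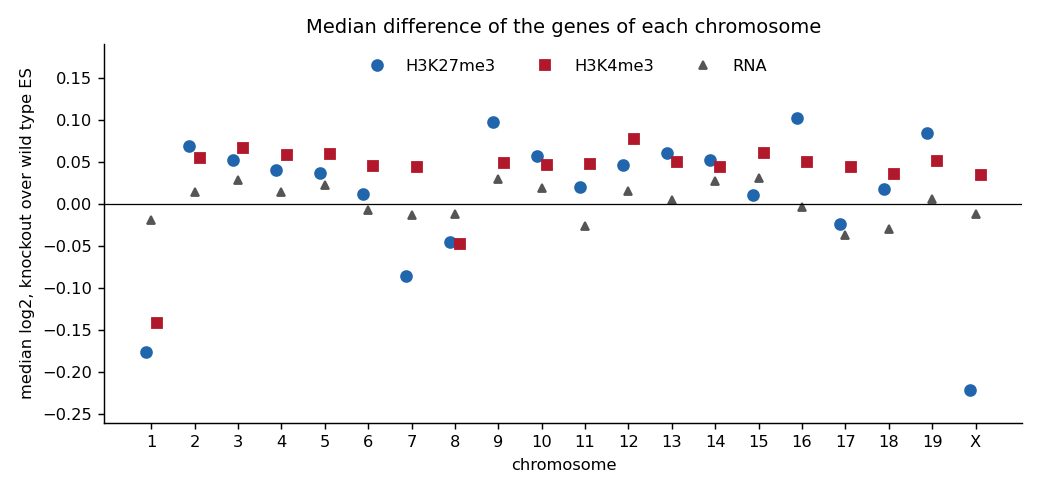
Median log2 difference between knockout and wild type ES per chromosome for H3K27me3 (circles, kept genes), H3K4me3 (squares, genes with a mean of at least 4) and RNA (triangles, genes averaging 5 FPKM or more). The Y chromosome, with 5 kept genes, is not drawn. Chromosome 1 is low in both marks (-0.18 and -0.14), and the X chromosome is low in H3K27me3 (-0.22) and not in H3K4me3 (0.035).

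Some blocks of neighbouring genes leaned in the same direction. In 531 blocks of 20 neighbouring kept genes, the medians ran from -0.28 at the 10th percentile to 0.25 at the 90th. Of these blocks 42 had a median below -0.3 and 33 a median above 0.3. How many unrelated genes would give was not tested. The lowest block, from Ushbp1 to Ap1m1 on chromosome 8 at 71384272 to 72257385, had a median of -0.66, and its median H3K4me3 ratio was -0.13. Of its 20 genes, a block picked by these same ratios, 12 were at least 1.5-fold lower, beside 9.38% of all kept genes. In it the antiviral gene Bst2, named after its values were seen, had 0.587 in knockout ES and 2.05 in wild type ES. The highest block, picked in the same way, from Oxsr1 to Lyzl4 on chromosome 9 at 119238432 to 121642096, had 0.58. In that block 10 of 20 genes were at least 1.5-fold higher, beside 7.11% of all kept genes. A block from Urb1 to Setd4 on chromosome 16 at 90751527 to 93604063 had 0.50, and in it Runx1, a master factor of blood formation, had 123 in knockout ES and 72.0 in wild type ES, whereas the neural factor Olig2, named after its values were seen, had 2.29 in knockout ES and 3.71 in wild type ES. Genes of a block can share domains of the mark and are not separate measurements.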

How the data were processed

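H3K27me3 and H3K4me3 values per gene are a signal that the authors deposited in 1 table per mark. The authors deposited RNA-seq values as FPKM per gene. The submitters' processing notes name Bowtie2, STAR 2.6.0a, HTSeq, Cufflinks 2.2.1 and DESeq2, with mm10, without saying which tool made which table. The tests had been planned for RPKM, the deposit's own name for the ChIP values, but these grow with locus length, so they were treated as signal. Nearly all lie within 0.02 of a whole multiple of a step, taken as 1 read in the counting intervals (Clopper-Pearson, 95%). The 25 symbols that a spreadsheet had turned into dates were left as filed. Input libraries were not analysed here.

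RNA was tested with limma 3.58.1 (R 4.3.3) on log2(FPKM + 1) of 8 libraries in 4 groups, for 15424 genes with at least 1 FPKM in 2 libraries, with Benjamini-Hochberg adjustment at 0.05 and trend. A fold on this scale understates the change of low genes. Depth of the RNA libraries is unknown. The procedure was tested on simulated data.

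Members, lists and tests were chosen with earlier results of these data known. Genes named are a fixed set of anchors, the 10 highest and 10 lowest H3K27me3 ratios where the ES mean was 4 or more (5 and 5 within the densest decile), the highest and lowest member of each list, and, among genes kept for H3K27me3, the 8 RNA calls with the smallest adjusted p. Exceptions in list paragraphs, such as Cdkn2b, Gadd45g, Gadd45b, Ermp1, Inhbb and the Polycomb genes Ezh2, Eed, Suz12 and Jarid2, were chosen after their values were seen. Some genes that the rule names are not reported here. Alternatives tried were other pseudocounts, filters, scalings, density orders, locus classes, chromosome sets and, for RNA, left-out replicates and a block on replicate number.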

Additional observations from a re-analysis of the deposited data

Results flagged for a closer look

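4 of the 134 genes named by rule had an H3K27me3 ratio past 1.5-fold in opposite directions in EB and ES. Among all kept genes, 96 of the 976 lower by 1.5-fold to 2-fold in ES (9.84%) were at least 1.5-fold higher in EB. Of the 771 higher by 1.5-fold to 2-fold in ES, 32 (4.15%) were at least 1.5-fold lower in EB. For genes lower or higher by 2-fold or more in ES these shares were 5.06% and 5.77%. The log2 ratio of knockout over wild type was -1.21 in EB and 1.22 in ES for Bmp4, a ligand of the TGF-beta superfamily. It was -0.624 in EB and 0.809 in ES for Foxo1, a transcription factor that insulin signalling holds back. For the protocadherin gene Pcdhb14 it was 0.879 in EB and -0.632 in ES. Xlr5b had 0.705 in EB and -0.908 in ES. With 1 library in each group, and a larger step in the wild type EB library, these differences were not tested.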

How the results depend on the processing

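The median log2 ratio over all genes (0.0037) moved to 0.028 with a mean of at least 4, -0.067 after dividing by library sums, -0.024 after centring on sparser genes, -0.24 in loci under 10 kb, 0.018 on autosomes and 0.023 without chromosome 1 (chosen after seeing the data). The densest decile stayed below 0 under every alternative run: its median (-0.32) was -0.23 with no filter on low values, -0.37 with a mean of at least 4, -0.39 after dividing by sums, -0.39 in loci under 10 kb, -0.21 with length plus 5 kb and -0.37 in the order given by the EB libraries. The other 9 deciles (0.044) were at 0 with no filter, 0.068 with a mean of at least 4, -0.028 after dividing by sums, 0.016 after centring on sparser genes, -0.080 in loci under 10 kb, 0.031 with length plus 5 kb and 0.057 without chromosome 1. Counts past 1.5-fold were 1647 higher and 2420 lower with no filter, 455 and 478 with a mean of at least 4, and 98 and 390 in loci under 10 kb. limma, with 65 genes higher and 12 lower in RNA, called 43 higher and 16 lower with no filter, 44 higher and 5 lower with a pseudocount of 0.1, 3 higher and 2 lower with ES libraries only, and 0 to 13 higher and 0 to 6 lower with a replicate left out, where the lone library is assumed to vary like the other groups. A left-out replicate or the fit on ES libraries only ended the call, with no change of sign, for every one of the 8 RNA-called genes named by rule. The medians over all genes and over the other 9 deciles, which lie near 0, were the only ones of these results to change sign. With the replicate number of the RNA libraries as a block (chosen after seeing the data) limma called 43 higher and 11 lower, 42 of them among the 77. The labels do not say what the number marks. Deviations of same-numbered libraries from their group means correlated at 0.31 across 15424 genes between knockout and wild type ES, and at 0.070 to 0.13 between the other pairs of groups. The mark has 1 library a side and allows no block. Without replicates of the mark, the depth bounds counting error only.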

Other observations

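A block of the major histocompatibility complex, from Neu1 to H2-Q10 on chromosome 17 at 34931253 to 35474563, was among the lowest 8 of the 531 blocks and was singled out after its values were seen. Its median log2 H3K27me3 ratio was -0.51, with 16 of 20 genes below 0, and its median H3K4me3 ratio was 0.27. In it H2-D1, a class I antigen-presenting molecule, had an H3K27me3 value of 4.11 in knockout ES and 7.76 in wild type ES, and its RNA was at 16.2 and 18.5 FPKM in knockout ES against 4.37 and 6.04 FPKM in wild type ES (log2 difference 1.57 ± 0.23, SE, limma, adjusted p = 0.0497). H2-Q4, a class I gene of the same block, had 1.68 in knockout ES and 5.44 in wild type ES, with RNA at 5.99 and 8.74 FPKM in knockout ES against 1.62 and 2.27 FPKM in wild type ES (adjusted p = 0.0424, limma). H2-K1, the other classical class I gene, lies outside the block and had 3.84 in knockout ES and 6.24 in wild type ES, with RNA at 22.4 and 27.9 FPKM in knockout ES against 7.52 and 9.17 FPKM in wild type ES (log2 difference 1.48 ± 0.21, SE, limma, adjusted p = 0.0424). For these 3 genes limma called RNA higher, the mark was lower and H3K4me3 was higher, with log2 ratios of 0.63 for H2-D1, 0.84 for H2-Q4 and 0.84 for H2-K1. These calls lie near the threshold: H2-D1 lost it under all 8 alternatives run, H2-K1 under 7 and H2-Q4 under 6, with adjusted p of up to 0.199, 0.203 and 0.199 (limma). Class I genes are similar in sequence, so the split of reads between them is uncertain. Tnf, the gene of an inflammatory cytokine in the same block, had H3K27me3 of 5.84 in knockout ES and 8.35 in wild type ES and hardly any RNA.

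Medians of other families stood near 0 in H3K27me3. The median log2 ratio was 0.034 over 289 kept solute carriers, with 21 (7.27%) at least 1.5-fold higher and 21 (7.27%) at least 1.5-fold lower. Of all kept genes 7.11% were higher and 9.38% lower. Over 88 potassium channels the median was -0.032, with 4 (4.55%) higher and 3 (3.41%) lower. Collagens had a median of -0.030 over 43 genes, with Col5a1 highest at 58.9 in knockout ES and 33.6 in wild type ES. Over 148 kept zinc finger genes the median was -0.055, with 11 (7.43%) higher and 20 (13.5%) lower. In EB 56 of these 148 were at least 1.5-fold higher in knockout, beside 21.3% of all kept genes. At least 1.5-fold lower in EB were 7, beside 13.7% of all.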
